A study of Gallus gallus with 2 samples.

Results

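The genes described here are the chick cytokines, chemokines and Toll-like receptors (TLRs), with the receptors of the first 2 groups, in basilar papilla (BP) explants before and after the loss of hair cells (HCs). The rule for choosing them was set with earlier results of these data known. It took, by symbol, every gene beginning with CCL, CCR and a digit, CXCL, CXCR, CX3C, TNFSF, TNFRSF, TLR, or IL and a digit, without IL6ST and IL17RD. This gave 128 of the 23842 genes in the deposited tables. Values are in TPM, a transcript abundance that is corrected for transcript length and scaled to a fixed sum per library. Of the 128 genes, 61 reached 1 TPM in at least 1 library and are described as expressed, 47 were above 0 but below 1 TPM in both libraries, and 20 were listed at 0 in both.

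The BP is the auditory epithelium of birds and consists of HCs and supporting cells (SCs). The SM0 library was made from explants of chicks at posthatch day 1 before exposure to streptomycin (SM), an antibiotic that damages HCs. The post-SM6 library was made from explants of chicks of the same age that were exposed to SM for 48 h and then cultured for 6 h without it, 54 h after the start of exposure. Each library was made from RNA pooled from 50 BPs, the chicks were males of the Momiji breed, and the surrounding tissue was removed with thermolysin in both groups. Since each group is a single library, no value has an error or a p-value, and SM, time in culture and differences between the pools cannot be told apart. No explants cultured for the same time without SM, and no libraries of SM24 and SM48, were analysed here.

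As background, cytokines and chemokines are secreted or membrane-bound proteins through which epithelial cells, fibroblasts and leukocytes signal to each other. Chemokines bind receptors of the G protein-coupled class and direct cell migration, interleukins bind paired receptor chains that often share a subunit, and tumor necrosis factor (TNF) superfamily ligands bind receptors that recruit TRAF adaptors or death domain proteins. TLRs recognize microbial products and molecules released by damaged cells, and most of them signal through MYD88 to the transcription factor NF-kappaB. In the avian and mammalian inner ear, macrophages are present near the sensory epithelium, and some of these genes are also expressed by epithelial cells.

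The members were expressed at low levels. Their median was 4.52 TPM at SM0 and 5.62 at post-SM6, against 15.9 and 15.6 TPM over the 13321 genes with at least 1 TPM in either library. Only 24 of the 61 reached 10 TPM in either library, and 5 reached 100 TPM. These 5 were CXCL14, TNFRSF6B, TNFRSF21, IL1RAP and IL17RC. They are an epithelial chemokine, a decoy receptor, a death domain receptor and chains of different interleukin receptors. These 5 genes summed to 743 TPM at SM0 and 748 at post-SM6. All 61 members together summed to 1319 TPM at SM0 and 1293 at post-SM6.

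The log2 change of a gene is the log2 of its post-SM6 TPM minus that of its SM0 TPM. To each value 0.1 TPM was added, so changes are understated where TPM is low. The study used a fold of 1.3 on normalized read counts, together with a p-value, minimum levels and further thresholds. Here the same fold was applied to TPM without a test, so the calls are not the study's differentially expressed genes. A gene is called higher or lower when it passes 1.3-fold. By this criterion 24 of the 61 members (39.3%) were higher at post-SM6 and 19 (31.1%) were lower, while 23.9% of all 13321 genes were higher and 23.3% were lower. At a fold of 2, 16 members (26.2%) were higher and 10 (16.4%) lower, against 9.56% and 7.83% of all genes. The median log2 change was 0.07 for the members, 0.01 without the 3 members listed at 0 at SM0, and -0.02 for all genes. Members therefore lay past the fold in both directions, with no common direction. The minimum of 1 TPM itself set the direction of some of these calls. Of the 24 higher members, 9 were below 1 TPM at SM0 (CXCL12, CX3CL1, CCL17, IL15, IL17D, IL17REL, TNFSF4, TNFSF11 and TNFRSF13B), and of the 19 lower ones, 3 were below 1 TPM at post-SM6 (CXCL13L2, IL12RB1 and TNFRSF18). The log2 changes of such genes depend on the added 0.1 TPM. With 1 TPM added instead, they were 1.71 for CX3CL1, 1.22 for IL17REL, 1.12 for TNFRSF13B, -1.65 for CXCL13L2, -1.03 for IL12RB1 and -1.75 for TNFRSF18, and that of IL20RA, also of low TPM, was 0.43, all with the same call. Among the 49 members with at least 1 TPM in both libraries, 15 were higher and 16 lower (30.6% and 32.7%), against 21.4% and 21% of all genes with at least 1 TPM in both. Level also moved with the share of calls. Among all genes whose highest value was from 1 to below 10 TPM, 32.6% were higher and 30.1% lower, and the 37 members of that range had 17 higher and 10 lower. Among genes of at least 10 TPM, 19.4% were higher and 19.8% lower, and the 24 members of that range had 7 higher and 9 lower.

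**Figure D1:**
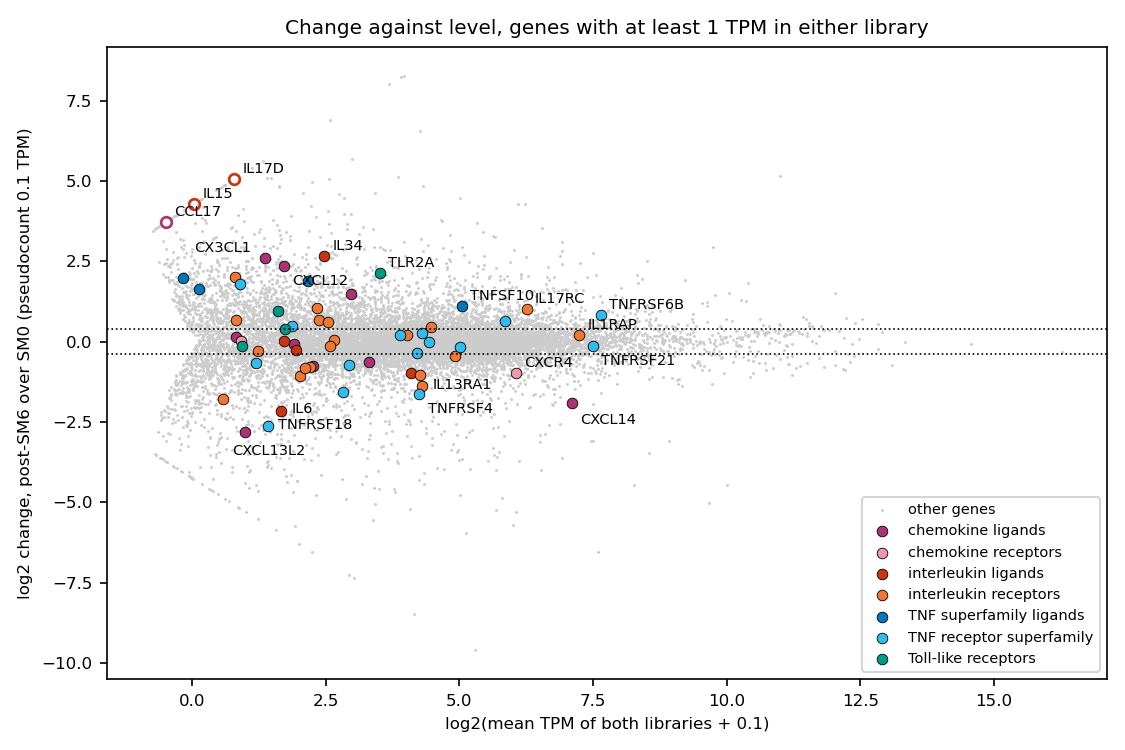
Log2 change from SM0 to post-SM6 (y axis, pseudocount 0.1 TPM) against the log2 mean TPM of both libraries plus 0.1 (x axis) for all 13321 genes with at least 1 TPM in either library (gray) and the 61 members (colored by role). Dotted lines mark 1.3-fold, and the 3 open circles (CCL17, IL15 and IL17D) are listed at 0 at SM0, so that the pseudocount sets their height. Members lie above and below the lines, and CXCL14 is the lower member with the highest level.

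The libraries differed in markers of several cell types, and these values stand beside all results on the members. Counts of called markers are to be read against the 23.9% of all genes that were higher and the 23.3% that were lower. The 9 rows of HC markers were all lower at post-SM6, at a median log2 change of -2.90 and summed TPM of 652 and 97.5. Of the 7 SC markers, 3 were higher and 2 lower, with a median log2 change of 0.17 and summed TPM of 4584 and 3548. TECTB alone made up 3950 and 2802 TPM of these sums. SOX2 went from 145.6 to 77.2 TPM and LFNG from 18.9 to 59.6 TPM. All 7 fibroblast markers were higher, with summed TPM of 35.8 and 370. Of 18 leukocyte markers in the data, 14 reached 1 TPM, of which 10 were higher and 1 lower. Of the higher ones, PTPRC, SPI1, ITGB2, C1QA, C1QB, C1QC and MARCO were below 1 TPM at SM0. The lower one, LCK, was below 1 TPM at post-SM6. The minimum thus set the direction of these calls. The summed TPM of all 18 was 79.9 at SM0 and 172 at post-SM6. CD74 alone made up 30.5 and 91.4 TPM of these sums. Among the leukocyte markers, LAPTM5 went from 4.79 to 17.6 TPM and C1QB from 0.48 to 6.07 TPM. CSF1R went from 1.09 to 2.34 TPM and PTPRC from 0.83 to 1.22 TPM. TIMD4 was listed at 0 at SM0 and had 0.14 TPM at post-SM6. Among the T cell genes, CD3E had 34.4 TPM at SM0 and 33.9 at post-SM6, LCK went from 1.26 to 0.41 TPM, and CD4 and CD8A stayed below 1 TPM. Of the 7 endothelial markers, 4 reached 1 TPM, with 2 higher and 1 lower. The 2 higher ones, CDH5 and KDR, passed the minimum only through post-SM6. The 3 erythroid genes of at least 1 TPM were lower. The part of these cells in the changes of the members was not tested. In bulk RNA, fewer cells of a type and less RNA per cell cannot be told apart.

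**Figure D2:**
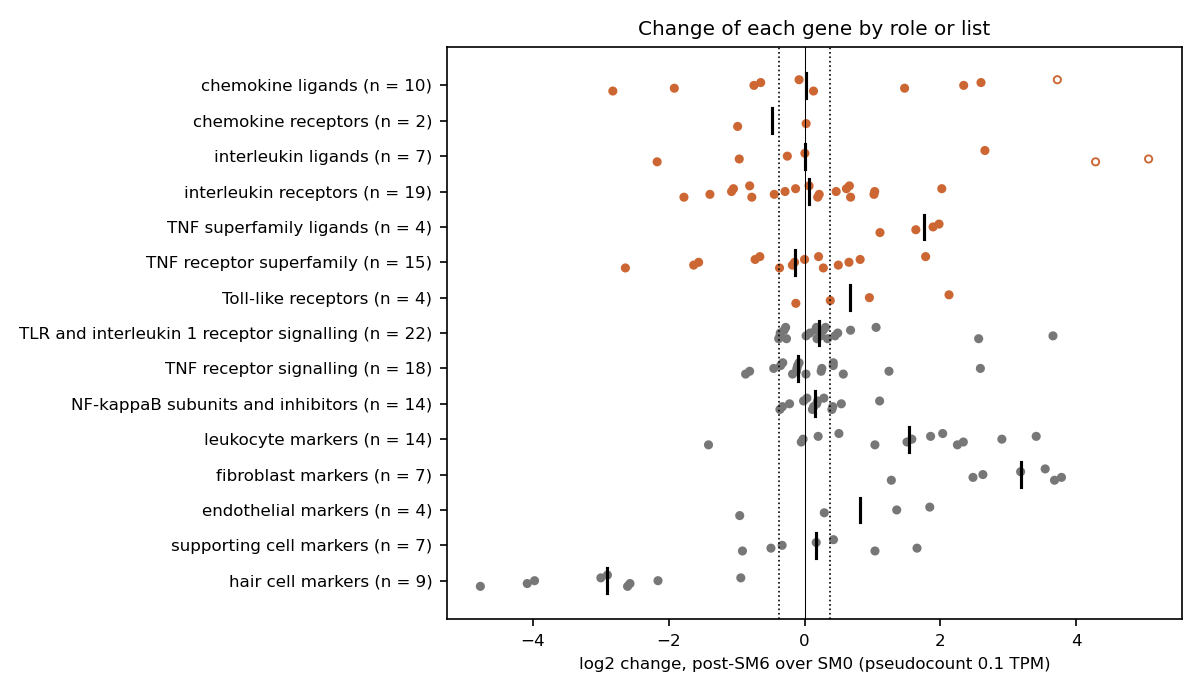
Log2 change from SM0 to post-SM6 (x axis, pseudocount 0.1 TPM) of each gene with at least 1 TPM in either library, by role for the members (orange) and by list for signaling genes and cell type markers (gray). Black bars are medians, dotted lines mark 1.3-fold, and open circles are listed at 0 at SM0. The 4 TNF superfamily ligands lie to the right of the lines, HC markers to the left, and fibroblast markers to the right. Of these ligands, TNFSF4 and TNFSF11 passed 1 TPM only through post-SM6, which set their direction.

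Among the chemokine ligands, 10 of 21 genes were expressed, with 4 higher and 4 lower (40% each, against 23.9% and 23.3% of all genes). CXCL12, CX3CL1 and CCL17 passed the minimum only through post-SM6 and CXCL13L2 only through SM0, so the minimum set their directions. CXCL14, a chemokine that epithelia make in the absence of inflammation, was the most abundant ligand among the members at SM0, with 218 TPM at SM0 and 57.6 at post-SM6. This was 3.79-fold lower (log2 change -1.92), and its level moved from the 95.8th to the 82.6th percentile of genes with at least 1 TPM in either library. Because of CXCL14, the summed TPM of the chemokine ligands went from 250.2 to 96.7. IL8L1 and IL8L2, the chick counterparts of CXCL8, which attracts heterophils, were also lower. IL8L2 went from 12.0 to 7.63 TPM and IL8L1 from 5.92 to 3.49 TPM, with log2 changes of -0.65 and -0.75. CXCL13L2, related to the B cell attractant CXCL13 of mammals, went from 3.37 to 0.39 TPM (log2 change -2.82).

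The 4 higher chemokine ligands had at most 11.4 TPM. CXCL12, the ligand of CXCR4, which guides cell migration in development, went from 0.98 to 5.38 TPM (log2 change 2.34). CX3CL1 (fractalkine), which in mammals is held at the cell membrane and binds CX3CR1 on macrophages, went from 0.63 to 4.32 TPM (log2 change 2.60). CCL4, which in mammals attracts monocytes and T cells, names 2 genes in the deposited tables. The gene with ID 395468 went from 4.04 to 11.4 TPM (log2 change 1.47), and that with ID 395551 had 0.92 TPM at SM0 and was listed at 0 at post-SM6. They are neighbors in the genome and may share reads, so the split between them is uncertain. CCL17, a ligand of CCR4, was listed at 0 at SM0 and had 1.22 TPM at post-SM6. CCL28, an epithelial chemokine, had 3.75 and 3.54 TPM, and the chick chemokine CCLI7 had 1.58 and 1.74 TPM. Both differed by less than 1.3-fold.

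**Figure D3:**
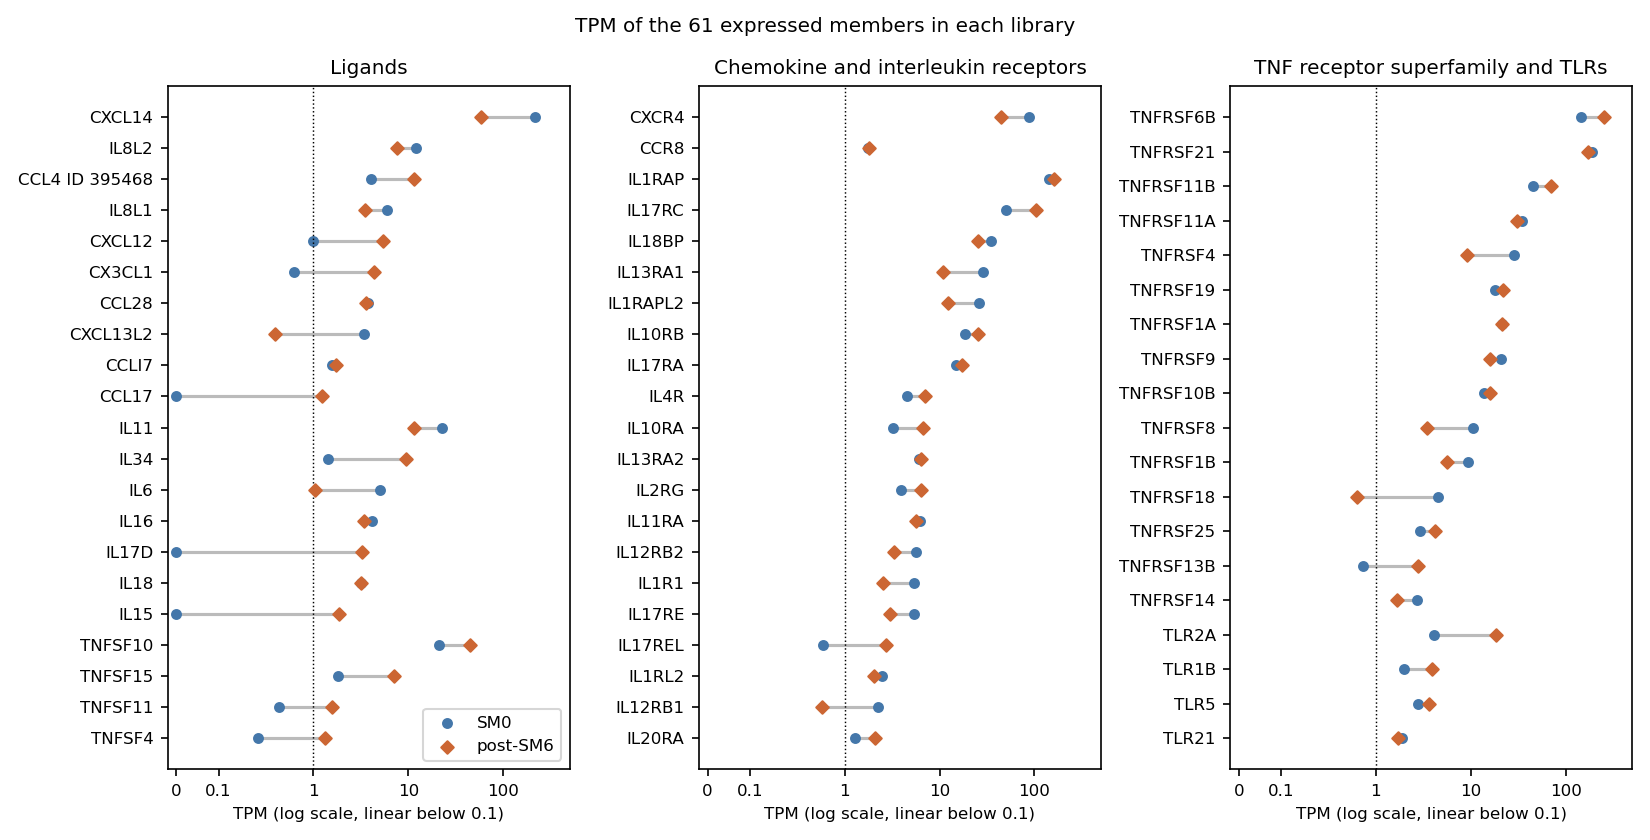
TPM at SM0 (blue circles) and post-SM6 (orange diamonds) of the 61 expressed members, by role, on a log axis that is linear below 0.1 TPM. The dotted line marks 1 TPM, and each point is 1 library with no replicate. CXCL14 and CXCR4 lie to the left at post-SM6, the 4 TNF superfamily ligands lie to the right, and TNFRSF1A is at the same place in both libraries. Of these ligands, TNFSF4 and TNFSF11 passed 1 TPM only through post-SM6, which set their direction.

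Of 13 chemokine receptors, only CXCR4 and CCR8 were expressed. CXCR4, the receptor of CXCL12, had 88.4 TPM at SM0 and 44.6 at post-SM6 (log2 change -0.99). CCR8, a receptor found on T cells in mammals, had 1.78 and 1.81 TPM. CCR2 and CX3CR1, which mark monocytes and macrophages in mammals, were below 1 TPM. CCR2 had 0.10 and 0.29 TPM, and CX3CR1 was listed at 0 at SM0 and had 0.60 TPM at post-SM6.

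Of 26 interleukin ligands, 7 were expressed, and 11 were listed at 0 in both libraries. Of the 7, 3 were higher (42.9%) and 2 lower (28.6%), against 23.9% and 23.3% of all genes. Of the 3 higher ones, IL17D and IL15 passed the minimum only through post-SM6, which set their direction. IL6 and IL11, which both signal through the shared chain IL6ST, were the lower ones. IL6 went from 5.08 to 1.05 TPM (log2 change -2.17), and IL11 from 22.5 to 11.5 TPM (log2 change -0.96). IL11 was the most abundant interleukin ligand in both libraries. IL34, which with CSF1 is a ligand of the macrophage receptor CSF1R, went from 1.42 to 9.48 TPM (log2 change 2.66). IL17D, of the interleukin 17 family, was listed at 0 at SM0 and had 3.25 TPM at post-SM6. IL15, a growth factor of natural killer and T cells in mammals, was listed at 0 and had 1.85 TPM. In all, 39 genes of the tables were listed at 0 at SM0 and had at least 1 TPM at post-SM6. IL18, which is activated by inflammasomes, had 3.18 and 3.19 TPM, and IL16 had 4.11 and 3.43 TPM. IL1B, the ligand of IL1R1, was listed at 0 at SM0 and had 0.33 TPM at post-SM6, below the minimum.

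The interleukin receptor chains were the largest role, with 19 of 35 expressed. Of these, 7 were higher and 7 lower (36.8% each, against 23.9% and 23.3% of all genes). IL17REL passed the minimum only through post-SM6 and IL12RB1 only through SM0, so the minimum set their directions. IL17RC, which pairs with IL17RA to bind interleukin 17 in mammals, went from 50.5 to 103 TPM (log2 change 1.02). Its partner IL17RA had 14.9 and 17.4 TPM (log2 change 0.22). IL17RE, the receptor of IL17C in mammals, went the other way, from 5.40 to 3.04 TPM, and IL17REL went from 0.59 to 2.70 TPM. IL17RC and IL17RE thus lay on opposite sides of the 1.3-fold criterion, with log2 changes of 1.02 and -0.81.

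Both chains of the interleukin 10 receptor were higher. IL10RA, the chain that is particular to interleukin 10, went from 3.21 to 6.67 TPM, and IL10RB, which other cytokines share, from 18.5 to 25.5 TPM, with log2 changes of 1.03 and 0.47. IL4R went from 4.52 to 6.98 TPM, IL2RG, the common gamma chain, from 3.92 to 6.33 TPM, and IL20RA from 1.28 to 2.08 TPM. These 3 had log2 changes from 0.62 to 0.68. IL13RA1, which forms a receptor for interleukins 4 and 13 with IL4R, went from 28.6 to 10.8 TPM (log2 change -1.39), while the decoy IL13RA2 had 6.08 and 6.37 TPM.

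In the interleukin 1 receptor family, the accessory chain IL1RAP was the most abundant member, with 141 TPM at SM0 and 161 at post-SM6 (log2 change 0.19). The binding chain IL1R1 went from 5.40 to 2.51 TPM (log2 change -1.08), and the decoy IL1R2 had 0.75 and 0.24 TPM. IL1RL2, the receptor of interleukin 36 in mammals, had 2.50 and 2.03 TPM. IL1RAPL2, a relative that in mammals acts at synapses, went from 25.8 to 12.4 TPM (log2 change -1.05). IL18BP, a secreted decoy of IL18, went from 35.0 to 25.7 TPM (log2 change -0.45). The abundant accessory chain was thus within 1.3-fold while the binding chain was lower.

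Both chains of the interleukin 12 receptor were lower. IL12RB1 went from 2.23 to 0.58 TPM, and IL12RB2 from 5.71 to 3.29 TPM, with log2 changes of -1.78 and -0.78. The direction of IL12RB1, which passed the minimum only through SM0, was set by the minimum. IL11RA, which binds IL11, had 6.17 and 5.62 TPM, within 1.3-fold.

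Of 6 TNF superfamily ligands, 4 were expressed, and all 4 were higher at post-SM6, against 23.9% of all genes. Their median log2 change was 1.77, against -0.02 for all genes. TNFSF10 (TRAIL), which in mammals induces apoptosis through death receptors, went from 20.8 to 45.1 TPM (log2 change 1.11). TNFSF15 (TL1A), a ligand of TNFRSF25, went from 1.81 to 6.99 TPM (log2 change 1.89). TNFSF11 (RANKL), which drives osteoclast formation, went from 0.43 to 1.55 TPM, and TNFSF4 (OX40L), which costimulates T cells in mammals, from 0.26 to 1.32 TPM. TNFSF11 and TNFSF4 passed the minimum only through post-SM6, which set their direction. The count and the median of the 4 ligands rest in part on these genes. Their log2 changes were 1.64 and 1.98, and adding 1 TPM to each value in place of 0.1 gave 0.83 and 0.88. TNFSF13B had 0.36 and 0.44 TPM, and TNFSF8 was listed at 0 in both libraries.

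The TNF receptor superfamily was the role with the largest summed level, at 547 TPM at SM0 and 630.1 at post-SM6, and 15 of 16 genes were expressed. Of these, 4 were higher (26.7%) and 5 lower (33.3%), against 23.9% and 23.3% of all genes. TNFRSF13B passed the minimum only through post-SM6 and TNFRSF18 only through SM0, so the minimum set their directions. TNFRSF6B, which in humans is a soluble decoy for TNFSF15 and for the FAS ligand, went from 145 to 256 TPM (log2 change 0.82). TNFRSF11B (osteoprotegerin), the soluble decoy of TNFSF11, went from 44.8 to 70.5 TPM (log2 change 0.65). Both soluble decoys of the family were thus among the higher members, and both are counted in the summed level of the family. TNFRSF25, a death domain receptor of TNFSF15, went from 2.94 to 4.19 TPM, and TNFRSF13B, a B cell receptor in mammals, from 0.74 to 2.79 TPM.

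Of the 5 lower TNF receptors, TNFRSF4, TNFRSF18 and TNFRSF8 are known in mammals from activated T cells. TNFRSF4 (OX40) went from 28.7 to 9.19 TPM and TNFRSF18 (GITR) from 4.51 to 0.64 TPM, with log2 changes of -1.63 and -2.64. TNFRSF8 (CD30) went from 10.5 to 3.48 TPM (log2 change -1.56). TNFRSF1B, the TNF receptor without a death domain, went from 9.41 to 5.64 TPM, and TNFRSF14, which binds the ligand LIGHT, from 2.71 to 1.68 TPM. TNFRSF9 (4-1BB) had 20.8 and 16.1 TPM, which put its log2 change at -0.37, just short of the criterion. Of the lymphocyte markers, LCK was lower. Like TNFRSF18, LCK passed the minimum only through SM0, so the minimum set the direction of both. CD3E and the B cell gene CD79B (0.91 and 1.06 TPM) were within 1.3-fold, and CD4 (0.05 and 0.12 TPM) and CD8A (0.08 and 0.30 TPM) were below the minimum.

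The remaining receptors of the family differed by less than 1.3-fold between the libraries. TNFRSF1A, the TNF receptor with a death domain, had 21.5 TPM at SM0 and 21.5 at post-SM6. TNFRSF21, also known as death receptor 6, had 189 and 171 TPM, and TNFRSF10B, a receptor of TNFSF10, had 13.7 and 15.8 TPM. TNFRSF11A (RANK) had 34.4 and 30.4 TPM, and TNFRSF19, which is known as TROY, had 17.8 and 21.6 TPM.

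Of 10 TLRs, 4 were expressed. TLR2A, which recognizes bacterial lipoproteins in pairs with TLR1, went from 4.14 to 18.4 TPM and was 4.45-fold higher (log2 change 2.13). TLR1B, its partner, went from 1.99 to 3.95 TPM (log2 change 0.95). The copies TLR2B and TLR1A stayed below 1 TPM, with 0.23 and 0.13 TPM and with 0.39 and 0.61 TPM. Each copy shares sequence with its partner, so reads could be split between them. TLR5, the flagellin receptor, had 2.80 and 3.67 TPM, which put its log2 change at 0.378, just below the criterion of 0.379. With 0.01 TPM added to each value it was 0.39, and after scaling by the median ratio of the libraries it was 0.41, both past the criterion. TLR21, which recognizes microbial DNA in birds, had 1.89 and 1.72 TPM. TLR4, the lipopolysaccharide receptor, had 0.18 and 0.90 TPM, TLR3, the receptor of double-stranded RNA, had 0.18 and 0.69 TPM, TLR7 had 0.08 and 0.19 TPM, and TLR15 had 0.07 and 0.30 TPM. Values below 1 TPM can rest on few reads, and read counts were not used here.

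Ligands and their receptors were set side by side. CXCL12 was higher and its receptor CXCR4 lower, while ACKR3, which scavenges CXCL12, had 28.7 and 28.0 TPM. IL34 was higher together with CSF1 (8.99 to 16.3 TPM), and their receptor CSF1R was at 1.09 and 2.34 TPM. IL6 was lower, with IL6R below 1 TPM at 0.50 and 0.84 TPM and the shared chain IL6ST at 42.1 and 43.8 TPM. IL10 had 0.48 and 0.03 TPM, and both chains of its receptor were higher. TNFSF4 was higher while its receptor TNFRSF4 was lower. TNFSF11 was higher while RANK was within 1.3-fold and osteoprotegerin was higher, and TNFSF15 was higher together with its receptor TNFRSF25. CXCL12, TNFSF4 and TNFSF11 passed the minimum only through post-SM6, so the minimum set the direction of these ligands. At post-SM6, the summed level of 185 TPM for all 21 expressed ligands was below that of 1080 TPM for the 36 expressed cytokine and chemokine receptors, as it was at SM0 with 309.8 and 998 TPM. The receptor sums include the soluble or secreted decoys TNFRSF6B (145 and 256 TPM), TNFRSF11B (44.8 and 70.5 TPM) and IL18BP (35.0 and 25.7 TPM). They are thus not sums of signaling receptors alone.

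**Figure D4:**
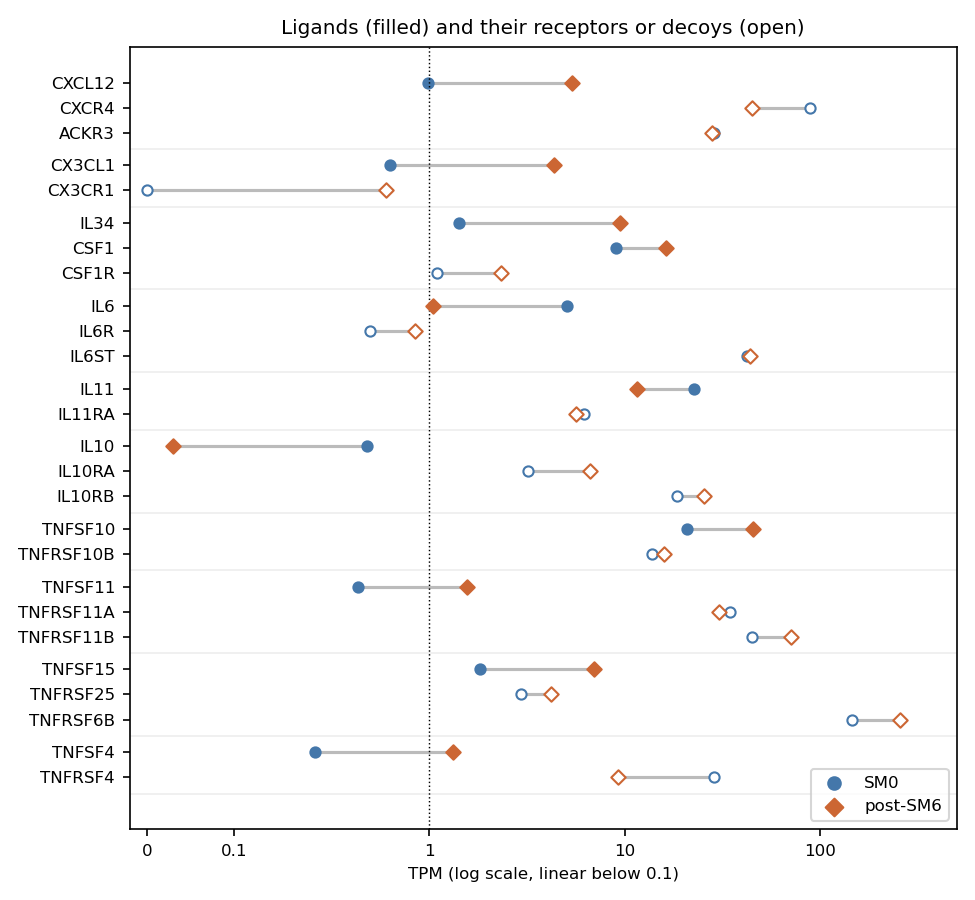
TPM at SM0 (circles) and post-SM6 (diamonds) of ligands (filled) and the receptors, shared chains or decoys that bind them (open), on a log axis that is linear below 0.1 TPM, with 1 library per point. The dotted line marks 1 TPM. In the CXCL12 and OX40L (TNFSF4) pairs the ligand lies to the right and CXCR4 or TNFRSF4 to the left at post-SM6, and CX3CR1 and IL6R stay below 1 TPM. Both of these ligands passed 1 TPM only through post-SM6, which set their direction.

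Neighboring genes were compared by their order in the RefSeq table of GRCg7b, a later assembly than the one used for the TPM, which matched 59 of the 61 expressed members. In 6 cases 2 expressed members were direct neighbors among coding genes. Of these pairs, 3 were lower together (TNFRSF4 with TNFRSF18, TNFRSF1B with TNFRSF8, and IL8L1 with IL8L2), and CX3CL1 and CCL17 were higher together. The directions of CX3CL1 and CCL17, which passed the minimum only through post-SM6, and of TNFRSF18, which passed it only through SM0, were set by the minimum. IL17RC and IL17RE were opposite, and IL1R1 was lower beside IL1RL2 within 1.3-fold. The chromosome of TNFRSF4 holds 6 of the 15 expressed TNF receptors, of which 4 were lower (TNFRSF4, TNFRSF18, TNFRSF8 and TNFRSF1B), TNFRSF25 was higher and TNFRSF9 was within 1.3-fold. Over all genes, 23.3% were lower and 23.9% higher. The chromosome was chosen through TNFRSF4, itself a lower gene. No share was taken over all neighboring pairs or over all genes of this chromosome, so a regional change was not tested.

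The adaptors and kinases downstream of these receptors were counted in the same way, and the counts are to be read against the 23.9% of all genes that were higher, the 23.3% that were lower and the median of -0.02 for all genes. Of 22 expressed genes of TLR and interleukin 1 receptor signaling, 6 (27.3%) were higher and 1 (4.55%) was lower, with a median log2 change of 0.21. The highest changes were those of LBP (0.99 to 13.7 TPM), LY86 (0.70 to 4.63 TPM) and UNC93B1 (4.06 to 8.53 TPM). The lowest were those of the kinase TBK1 (38.9 to 29.8 TPM), the adaptor TRAF3 (4.08 to 3.16 TPM) and TAB1 (29.3 to 22.8 TPM), of which only TBK1 passed the criterion. LBP and LY86 passed the minimum of 1 TPM only through post-SM6, which set their direction. MYD88 had 10.2 and 12.1 TPM. Of 18 genes of TNF receptor signaling, 5 (27.8%) were higher and 3 (16.7%) lower, with a median of -0.09. NGFR went from 1.65 to 10.4 TPM, FAS from 0.69 to 1.77 TPM and CD40 from 12.6 to 18.7 TPM. TRAF5 went from 1.89 to 0.99 TPM, MAP3K5 from 18.4 to 10.5 TPM and LITAF from 291 to 212 TPM. FAS passed the minimum only through post-SM6 and TRAF5 only through SM0, so the minimum set their directions.

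NF-kappaB subunits and inhibitors had 14 expressed genes, 4 higher (28.6%) and none of the 14 lower, with a median of 0.16. The shares of higher genes in these 3 lists were thus near that of all genes. The shares of lower genes were below the 23.3% of all genes, at 4.55%, 16.7% and 0%. TNIP2 went from 0.76 to 1.75 TPM, the feedback inhibitor TNFAIP3 from 6.23 to 9.11 TPM and REL from 9.23 to 12.3 TPM. Of these, TNIP2 passed the minimum only through post-SM6, which set its direction. NFKBIE had 19.1 and 14.8 TPM, NFKBIZ 10.4 and 8.26 TPM, and CYLD 12.8 and 10.9 TPM. NFKBIA, which encodes the main inhibitor of NF-kappaB, had 59.4 and 58.7 TPM. Of 16 inflammatory target genes, 8 (50%) were higher and 4 (25%) lower, with a median of 0.49. TNFAIP2 went from 0.16 to 2.36 TPM, the matrix protein TNFAIP6 from 2.87 to 21.4 TPM, and the gene that RefSeq now calls SAA, listed as HPS5 in the tables, from 16.7 to 58.6 TPM. Of these genes, TNFAIP2 passed the minimum only through post-SM6, which set its direction. The name SAA comes only from GRCg7b, a later assembly than the one used for the TPM. Counting that gene as an inflammatory target is therefore uncertain. PTGS2, the inducible cyclooxygenase, went from 54.8 to 7.18 TPM, the protease PLAU from 15.5 to 7.56 TPM and BATF3 from 14.1 to 8.14 TPM. The inflammatory targets thus moved in both directions.

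Among 13 other cytokines and shared receptor chains, 8 (61.5%) were higher and 1 (7.69%) was lower, with a median of 0.85. CD74 went from 30.5 to 91.4 TPM and IL17RD from 4.94 to 13.6 TPM. CD74 is also one of the leukocyte markers above. MIF, for which CD74 is a receptor, went from 4605 to 2662 TPM, and LIF had 41.9 and 32.3 TPM and CSF3R 2.30 and 2.22 TPM. Of 6 other chemokine system genes, 4 (66.7%) were higher and 1 (16.7%) lower, with a median of 1.03. RARRES2 (chemerin) went from 99.9 to 263 TPM, its receptor CMKLR1 from 2.35 to 4.72 TPM, CKLF from 26.6 to 59.0 TPM and GPR183 from 2.30 to 4.98 TPM, while ACKR4 went from 5.25 to 4.01 TPM.

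The members nearest to the minimum of 1 TPM were, on its upper side, CCL17, TNFSF4, TNFSF11 and CCLI7, with highest values from 1.22 to 1.74 TPM. On the lower side 17 members had a highest value from 0.5 to below 1 TPM. They included CCLI8 (0.41 and 0.99 TPM), CXCR1, a receptor of CXCL8 (0.91 and 0.89 TPM), CXCL13 (0.61 TPM and listed at 0), CCL20 (0.45 and 0.53 TPM), CCL26 (listed at 0 and 0.51 TPM) and CCR7 (0.34 and 0.67 TPM). The interleukin genes among them were IL23A (0.38 and 0.67 TPM), IL15RA (0.62 and 0.28 TPM), IL31RA (0.52 and 0.70 TPM), IL9R (0.28 and 0.67 TPM), IL6R and IL1R2. CX3CR1, TLR1A, TLR3, TLR4 and the second CCL4 gene complete the 17. No fold is given for these genes, because both of their values lie below the minimum.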

How the data were processed

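RNA of pooled BPs was sequenced as 1 library per time point. The authors removed reads matching ribosomal RNA with Bowtie2 (2.1.0), aligned the rest to GRCg6a with STAR (2.7.1a) and estimated expression with RSEM (1.3.0), and the deposited values are TPM. RSEM divides reads shared by similar genes among them. The TPM of each library have nearly the same sum (999997 at SM0 and 999999 at post-SM6), so they do not give the depth. Read counts were not used here, and no counting interval is given.

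Log2 changes used a pseudocount of 0.1 TPM, a minimum of 1 TPM in either library and a fold of 1.3. No test was run. The members and gene lists were chosen with earlier results of these data known, and the split by level after the values were seen. All expressed members are named, members from 0.5 to below 1 TPM are named with values, and the 3 highest and 3 lowest changes are named from each signaling list, except that some genes are not reported here. NFKBIA, MYD88, CSF1, ACKR3, IL6ST and members below 0.5 TPM were named after their values were seen. The lists for cell types hold markers of HCs, SCs, leukocytes, fibroblasts, endothelial and erythroid cells.

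Alternatives were pseudocounts of 1 and 0.01, a scaling of post-SM6 by the median of the gene ratios over genes averaging 10 TPM or more, a scaling that left out the 10 genes with the most TPM, other minimums and a fold of 2. The code was tested on simulated data. Python 3.11.15, numpy 2.4.6, pandas 2.3.3 and matplotlib 3.10.9 were used. Genes were matched by ID to the RefSeq table of GRCg7b for 124 of 128 members.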

Additional observations from a re-analysis of the deposited data

How the results depend on the processing

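No paired analysis was possible because each time point has 1 library, and no replicate could be left out. Under both pseudocounts and both scalings, 59 of the 61 members kept their call. The exceptions were TLR5, higher with a pseudocount of 0.01 and with the median ratio, and TNFRSF9, lower at -0.39 without the 10 most abundant genes. The median log2 change of the members ran from 0.00 with a minimum of 2 TPM to 0.20 with a minimum of 0.5 TPM. With no minimum, 108 members were above 0 in either library, 46 of them higher (42.6%) and 34 lower (31.5%). Of all 18552 genes at this setting, 25.2% were higher and 27.7% lower. In all, 9817 genes passed the fold, against 6293 at 1 TPM, because more genes enter. A fold of 2 left 16 higher and 10 lower members (26.2% and 16.4%) and 2316 of all genes (9.56% higher and 7.83% lower). A pseudocount of 1 moved the log2 change of 15 members, all of low TPM, by more than 0.379. Neither scaling moved the median of all genes by more than 0.1. Read counts were not used here, and values of a few TPM can rest on few reads.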
